A study of Arabidopsis thaliana with 33 samples.

Results

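The loci AT3G28750, AT3G28780 and AT3G28820 are near neighbours on chromosome 3 of Arabidopsis thaliana. They had low ratios of mutant over wild type in nzz and ms1, mutants whose flowers make no viable pollen. The loci were chosen by their locus tags, as 3 of the 13698 named genes and 3 of the 26090 gene probes on the arrays, with 1 probe each. They were picked from genes already known to be low in ms1, and their ms1 series ratios may have been in view too. Their values in ms1 and in the ms1 series are therefore given as descriptions with no test, and tests are given for the other mutants only. The annotation used here lists the 3 loci as protein-coding and gives them a locus tag in place of a gene name, so no function is assigned to them. How alike their sequences are, and whether each probe also binds RNA of related genes, was not tested.

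Pollen forms inside the anther in steps. Sporogenous cells go through meiosis, the microspores are fed by the tapetum, the nurse tissue that lines the anther, and the young pollen then switches on a large set of its own genes as it matures. Many genes of mature pollen act in cell wall loosening, the cytoskeleton and tube growth, and are hardly used elsewhere in the plant.

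Each of the 33 arrays set mutant RNA against wild-type RNA of the matching tissue, with Cy3 on one and Cy5 on the other. The ap3 mutant, in a gene that specifies petals and stamens, was sampled as inflorescence meristem with buds no older than early stage 10 (4 arrays). The nzz mutant, blocked at the start of sporogenesis, and the ms1 mutant, whose defect lies in the tapetum, were each sampled as meristem with all buds until stage 13, flower maturity (4 arrays each). The ms1 series divided flowers by age into 7 samples with 3 arrays each, 1 from every collection set, in which labelled series sample 1 holds mature flowers and labelled series sample 7 the meristem and youngest buds. Each tissue sample pooled 50 plants. The labels name no allele or strain, and they do not say whether arrays of different mutants shared wild-type RNA. Tissue of each sample was a mixture of cell types, so fewer pollen-forming cells and less RNA per cell cannot be told apart.

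All values below are log2 ratios of mutant over wild type, and a negative ratio means lower in the mutant. The deposited numbers state neither their logarithm base nor their direction. Base 10 was inferred from a limit at -2 and 2 (a ratio of 100, or 6.64 on the log2 scale), and values at that limit have no measured size. Their sign mostly followed the dye: in the deposited unit 96.4% of limited values were positive, which reads as lower in the mutant, on arrays with the mutant in Cy3, against 1.501% on arrays with the mutant in Cy5. A ratio of -6.64 on a Cy3 array or of 6.64 on a Cy5 array is therefore no bound on the mutant's ratio. Were the base 2, that limit would stand at 4-fold, and the log2 ratios given here would be too large by a factor of 3.32. The direction was set by where pollen genes lie, so it is likely and not settled, the low ratios of pollen genes in nzz and ms1 are no independent result, and the opposite sign would exchange lower and higher throughout. Of an array's values, 2.37% to 17.7% were at the limit. Replicate arrays with opposite dyes correlated at 0.50 to 0.57 in nzz over the 16600 probes never missing or limited, against -0.11 to 0.06 in ap3 and -0.61 to -0.04 in labelled series sample 1. Over all probes the correlations of opposite dyes were negative in each of the 3 mutants.

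The deposited values of the 3 genes mostly kept 1 sign whichever dye carried the mutant, and those of AT3G28750 did so on every array. For AT3G28750 they were positive on 20 of 20 arrays with the mutant in Cy3 and on 13 of 13 with the mutant in Cy5. For AT3G28780 they were positive on 20 of 20 and 9 of 12 such arrays, and for AT3G28820 on 20 of 20 and 11 of 12. On the nzz arrays, the ms1 arrays and the arrays of labelled series samples 5 to 7, every value of the 3 genes had this sign in both dyes.

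One feature of the series touches all results on it. Mature pollen markers had their lowest ratios in the samples labelled as younger: the median over 9 measured markers of 14 was -0.14 in labelled series sample 1, 0.20 in sample 5, -2.56 in sample 6 and -2.45 in sample 7. AMS, a transcription factor that acts in the tapetum, had its lowest series ratio in labelled sample 7 (-4.32), as did ATA20 (-1.66, not called). The rest of the 4 measured tapetum and pollen wall markers did not. ATA27 was lowest in labelled sample 2 (-5.02) and SHT in sample 4 (-4.50), and in sample 7 they read -0.66 and 0.49. Stage labels are given here as deposited, and whether the numbering runs as described was not tested.

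**Figure D1:**
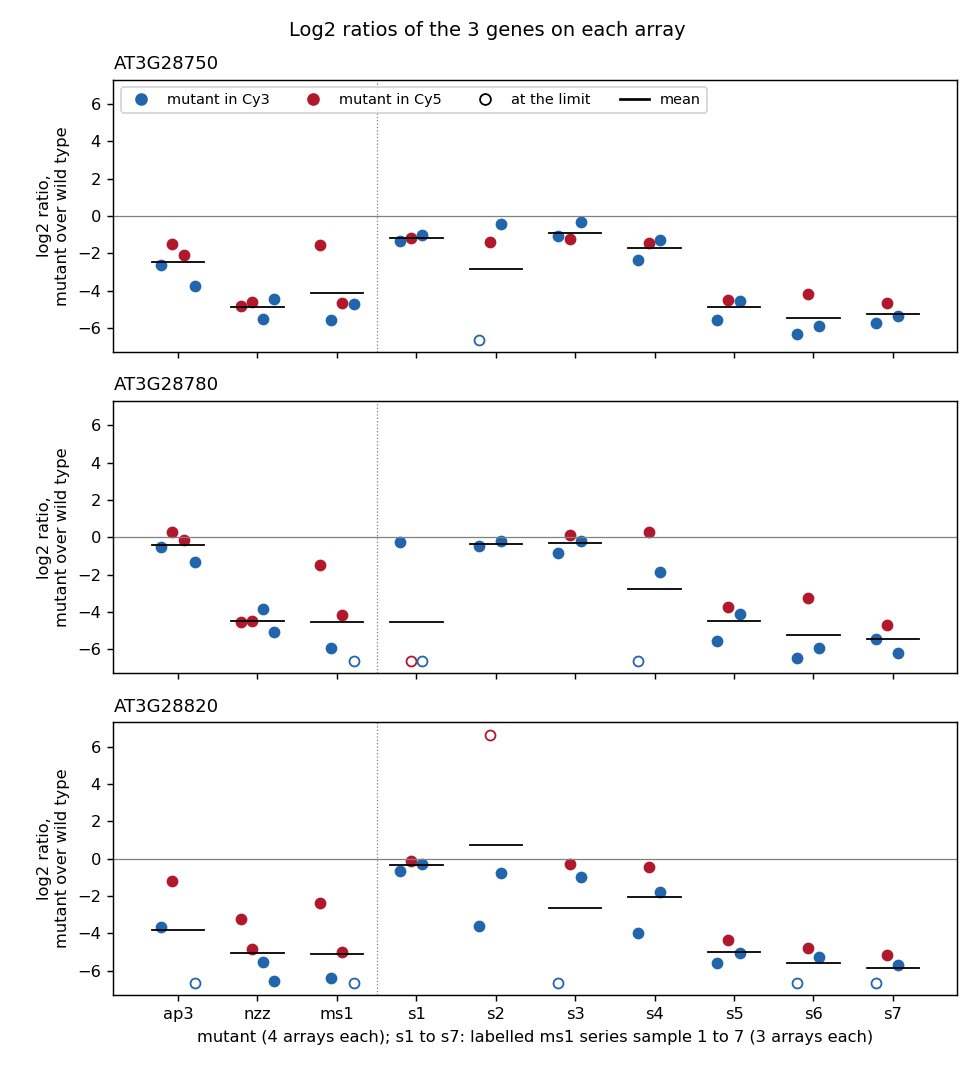
Log2 ratio of mutant over wild type (vertical axis) of the 3 genes on every array, by mutant and by labelled ms1 series sample (horizontal axis); points are arrays, open points lie at the limit, horizontal bars are means. All 4 nzz arrays and all arrays of labelled series samples 5 to 7 lie at -3.24 or below, while ap3 and labelled series samples 1 to 4 reach higher. AT3G28780 passes 0 in ap3 and in these series samples, and AT3G28820 only at a limited array of labelled sample 2. AT3G28750 stays below 0 on every array.

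In nzz inflorescences all 3 genes fell, by 22.4-fold to 33.4-fold. AT3G28750 read -4.83, -4.64, -5.55 and -4.43 on nzz replicates 1 to 4, AT3G28780 read -4.53, -4.51, -3.82 and -5.09, and AT3G28820 read -3.25, -4.86, -5.57 and -6.56. No array reached the limit for any of the 3. The plot of ratios by array shows the 4 nzz points of AT3G28750 and of AT3G28780 close together, and those of AT3G28820 more widely spread, with both Cy3 arrays below both Cy5 arrays.

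The mean for AT3G28750 in nzz was -4.86 ± 0.48 (SE, n = 4 arrays; 29.0-fold lower; limma adjusted p = 0.000475). That for AT3G28780 was -4.49 ± 0.57 (22.4-fold lower; limma adjusted p = 0.00142), and that for AT3G28820 was -5.06 ± 0.59 (33.4-fold lower; limma adjusted p = 0.00154). So 3 of 3 genes were called lower at an adjusted p under 0.05, where 6.91% of the 26046 probes tested were. The genes were picked as low in ms1, another mutant without viable pollen, and the direction was set by where pollen genes lie. These calls in nzz are therefore no independent result. The median over the 3 genes was -4.86, and the median over all probes was 0.10. Taken array by array, the genes differed from each other by means of 0.20 to 0.57 in size, less than the SDs of those differences (0.99 to 1.52). By size they ranked 54th, 73rd and 38th from the lowest of all probes tested.

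The 3 calls in nzz rest on the reading of the deposited values as already turned to one direction. Opposite-dye nzz arrays correlated negatively over all probes, as plain dye ratios would, but at 0.50 to 0.57 over the probes never missing or limited. Read instead as plain dye ratios, the nzz ratios of AT3G28750, AT3G28780 and AT3G28820 came to -0.13, 0.03 and -1.003, and none was called (limma adjusted p = 0.96, 0.994 and 0.5). Leaving out any 1 nzz array kept all 3 calls.

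In ap3 buds, collected only to early stage 10, the 3 genes gave unlike ratios, and 0 of 3 were called. AT3G28750 read -2.62, -1.51, -2.07 and -3.77 on ap3 replicates 1 to 4. AT3G28780 read -0.50, 0.31, -0.12 and -1.35. AT3G28820 read -3.67, -1.20 and the limit of -6.64 on replicates 1, 2 and 4 and was missing on replicate 3. AT3G28750 was thus below 0 on all 4 arrays and AT3G28820 on all 3 it had, whereas the arrays of AT3G28780 straddled 0.

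The ap3 ratio of AT3G28750 was -2.49 ± 0.48 (SE, n = 4; limma adjusted p = 0.117). That of AT3G28820 was -3.37 ± 0.69 (SE, n = 3 with 1 array missing; limma adjusted p = 0.149), a fitted value that the dye term moved away from the plain mean of -3.84 because its remaining arrays were unbalanced in dye. The limited array, replicate 4, carried the mutant in Cy3, and in the fit without it AT3G28820 read -2.43 (limma adjusted p = 0.303). With limited values set to missing, AT3G28820 had too few ap3 values for the test. That of AT3G28780 was -0.42 ± 0.57 (SE, n = 4; limma adjusted p = 0.942). By limma, 0.123% of all 26017 probes were called lower in ap3, and none of the 3 genes was. At an unadjusted p under 0.05, 2 of the 3 genes and 5.09% of all probes were lower. On each ap3 array AT3G28750 lay below AT3G28780, by a mean of 2.08 ± 0.26 (SD, n = 4), the difference of the 2 log2 ratios being -2.08.

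The difference between the mutants was tested itself. The ratio of AT3G28780 was higher in ap3 than in nzz by 4.07 ± 0.80 (SE; limma adjusted p = 0.0338), and its 4 ap3 arrays, at -1.35 to 0.31, lay above its 4 nzz arrays, at -5.09 to -3.82. The difference was 2.37 ± 0.68 for AT3G28750 (limma adjusted p = 0.114) and 1.69 ± 0.91 for AT3G28820 (limma adjusted p = 0.415). That makes 1 of 3 genes called higher, where 2.2% of 25974 probes were. The call for AT3G28780 was lost in 7 of the 8 fits that left out 1 array (adjusted p up to 0.116; only without nzz replicate 3 was it kept, at 0.0389), without the dye term (0.0725), after scaling of the arrays to one spread (0.26) and with a replicate block (0.0949). Tissue age and genotype differ together between ap3 and nzz and cannot be told apart.

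In ms1 inflorescences, the setting in which the genes had been chosen, AT3G28750 read -1.55, -5.57, -4.65 and -4.73 on replicates 1 to 4, with a mean of -4.13 ± 1.76 (SD, n = 4). AT3G28780 read -1.49, -5.92, -4.15 and the limit of -6.64, with a mean of -4.55 ± 2.29. AT3G28820 read -2.39, -6.39, -5.01 and the limit of -6.64, with a mean of -5.11 ± 1.95. Replicate 1 gave the ratio nearest 0 for every 1 of the 3 genes, and in fits without that array their ratios were -4.86, -5.42 and -5.61. Replicate 4 carried the mutant in Cy3, and with its limited values set to missing AT3G28780 read -4.04 and AT3G28820 -4.99.

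**Figure D2:**
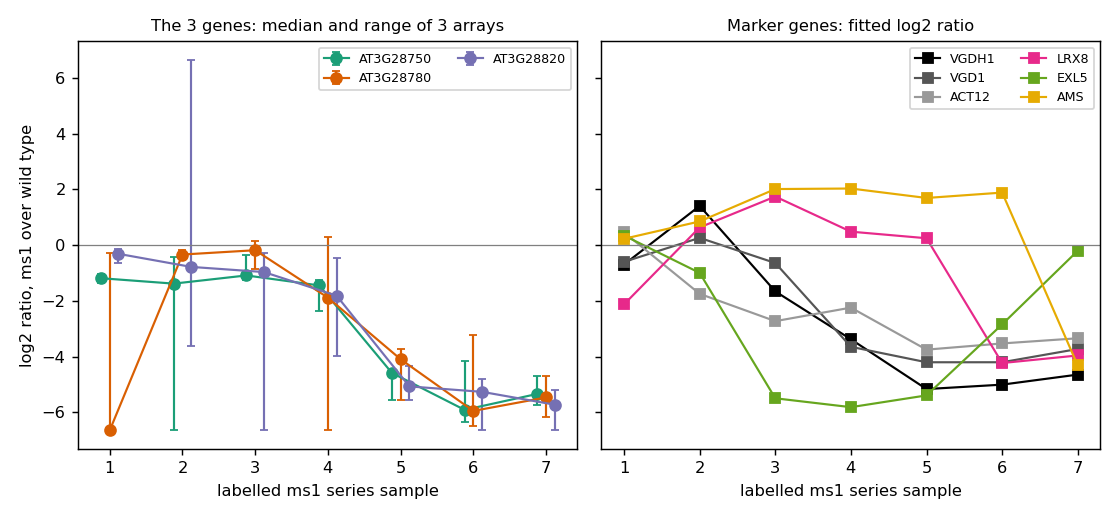
Log2 ratio of ms1 over wild type (vertical axes) by labelled series sample (horizontal axes): left, the median of the 3 genes with bars from the lowest to the highest of 3 arrays; right, limma's fitted ratios of 6 marker genes of pollen (VGDH1, VGD1, ACT12, LRX8), pollen coat (EXL5) and tapetum (AMS). The 3 genes lie at medians of -4.10 or below in labelled samples 5 to 7.

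Along the ms1 series the 3 genes were far below wild type in labelled samples 5, 6 and 7. Labelled series samples 1 to 4 held smaller and less regular ratios. AT3G28750 stayed negative on all 12 of these arrays. It read -1.34, -1.19 and -1.04 in sets 1 to 3 of labelled sample 1, -1.09, -1.24 and -0.34 in sample 3, and -2.38, -1.45 and -1.27 in sample 4. In labelled sample 2 it read -1.38 and -0.44 in sets 2 and 3 and the limit of -6.64 in set 1, so that its mean there, -2.82 ± 3.34 (SD, n = 3), rests on that 1 limited value. Over labelled samples 5 to 7 the median of AT3G28750 was -5.34 (-6.33 to -4.17), against -1.25 (-6.64 to -0.34) over samples 1 to 4, and apart from that value the 2 sets of arrays did not overlap. This division of the series was made with earlier results of these data known, and how many of all probes separate alike was not counted.

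AT3G28780 stood near 0 in labelled samples 2 and 3, at -0.50 and -0.18 in sets 1 and 3 of sample 2 (set 2 missing) and at -0.85, 0.14 and -0.18 in sample 3. In labelled sample 1 only set 1 gave a measured ratio, -0.27, and the other sets were at the limit of -6.64, set 2 against the usual sign of limited values with the mutant in Cy5. In labelled sample 4 it read the limit of -6.64, 0.28 and -1.89. Its median over labelled samples 5 to 7 was -5.47 (-6.49 to -3.24), against -0.50 over 11 arrays of samples 1 to 4, 3 of them at the limit.

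AT3G28820 was closest to 0 in labelled sample 1, at -0.66, -0.13 and -0.31. Labelled sample 2 gave it limits of no use for a mean, with -3.64 and -0.78 in sets 1 and 3 and the upper limit of 6.64 in set 2. It read the limit of -6.64, -0.27 and -0.97 in labelled sample 3, and -3.97, -0.46 and -1.82 in sample 4. Its median over labelled samples 5 to 7 was -5.27 (-6.64 to -4.34), against -0.72 (-6.64 to 6.64) over samples 1 to 4.

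In labelled samples 5 to 7 every array was low. AT3G28750 read -5.57, -4.49 and -4.59 in sets 1 to 3 of labelled sample 5, -6.33, -4.17 and -5.91 in sample 6, and -5.75, -4.68 and -5.34 in sample 7. AT3G28780 read -5.57, -3.73 and -4.10 in labelled sample 5, -6.49, -3.24 and -5.95 in sample 6, and -5.47, -4.70 and -6.18 in sample 7. AT3G28820 read -5.57, -4.34 and -5.07 in labelled sample 5, then -4.81 and -5.27 in sets 2 and 3 of sample 6 and -5.19 and -5.73 in those of sample 7, with set 1 (mutant in Cy3) at the limit of -6.64 in both. With limited values set to missing, its fitted ratios were -5.04 and -5.46 in labelled samples 6 and 7. All of these ratios were negative, and set 2, the one with the mutant in Cy5, gave the ratio nearest 0 in each sample for every gene.

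In order of the series means, AT3G28750 was lowest in labelled sample 6 (-5.47 ± 1.15, SD, n = 3), followed by sample 7 (-5.26 ± 0.54) and sample 5 (-4.88 ± 0.60), neighbours that differed by less than their spread. AT3G28780 was lowest in labelled sample 7 (-5.45 ± 0.74), then in sample 6 (-5.23 ± 1.74) and sample 1 (-4.52 ± 3.68, with 2 limited arrays). AT3G28820 was lowest in labelled sample 7 (-5.85 ± 0.74), then in sample 6 (-5.57 ± 0.96) and sample 5 (-4.99 ± 0.62). Among all probes tested, AT3G28750 had the 4th lowest fitted ratio in labelled sample 6, and AT3G28780 and AT3G28820 had the 6th and 4th lowest in labelled sample 7. These ranks describe genes chosen for being low.

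Some pollen marker genes with names were low in the same labelled samples, and others were not. VGDH1 and VGD1, a related pair of pectin methylesterases of the pollen tube, and ACT12, an actin of pollen, were called lower in all of labelled samples 5 to 7, and no other measured pollen marker was in samples 5 and 7. Their limma ratios in labelled sample 5 were -5.17, -4.20 and -3.75. ACT12 was also called lower in labelled samples 2, 3 and 4 (-1.75, -2.73 and -2.24) and VGD1 in sample 4 (-3.65), where the 3 genes were irregular or nearer 0. The other 6 measured pollen markers read 0.01 to 0.66 in labelled sample 5. LRX8, an extensin-like wall protein of pollen, read 0.25 in labelled sample 5, -4.23 in sample 6 and -3.96 in sample 7, and was called only in sample 6. Called lower were 3 of 9 measured pollen markers in labelled sample 5, 4 in sample 6 and 3 in sample 7, where 0.79%, 0.713% and 0.552% of all probes were, and leaving out 1 array changed these counts to between 2 and 5. EXL5, of a lipase family with pollen coat members, was called lower in labelled samples 3, 4 and 5 (-5.50, -5.81 and -5.39), was not called in sample 6 (-2.84) and read -0.20 in sample 7. The plot of series medians shows the 3 genes and these first 3 markers all below -3 in labelled samples 5 to 7.

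In the mutants the marker lists stood as follows. Called lower were 5 of 9 measured mature pollen markers in nzz (median -2.13), 4 in ms1 (median -2.69) and 1, VGD1, in ap3 (median -0.56), where the call of VGD1 was lost without any 1 ap3 array. The shares of all probes called lower were 6.91%, 1.74% and 0.123% in these mutants. Leaving out 1 array left 3 or 4 called in nzz and 3 to 5 in ms1. Of 4 measured tapetum and pollen wall markers of 13 listed, 4 were called lower in nzz, 0 in ms1 (2 at an unadjusted p under 0.05 by limma) and 0 in ap3 (2 at an unadjusted p under 0.05). At that unadjusted threshold, 7.21% of all probes were lower in ms1 and 5.09% in ap3. None of the 3 measured meristem and carpel markers was called by limma in any of the 3 mutants. At an unadjusted p under 0.05, 2, 1 and 0 were higher in ap3, nzz and ms1, where 4.57%, 19.5% and 7.28% of all probes were. On ms1 replicate 1, where the 3 genes were nearest 0, the median over the mature pollen markers was -1.28, against -2.87, -1.22 and -2.19 on replicates 2 to 4. What part the number of pollen cells in each sample had in the ratios of the 3 genes was not tested.

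**Figure D3:**
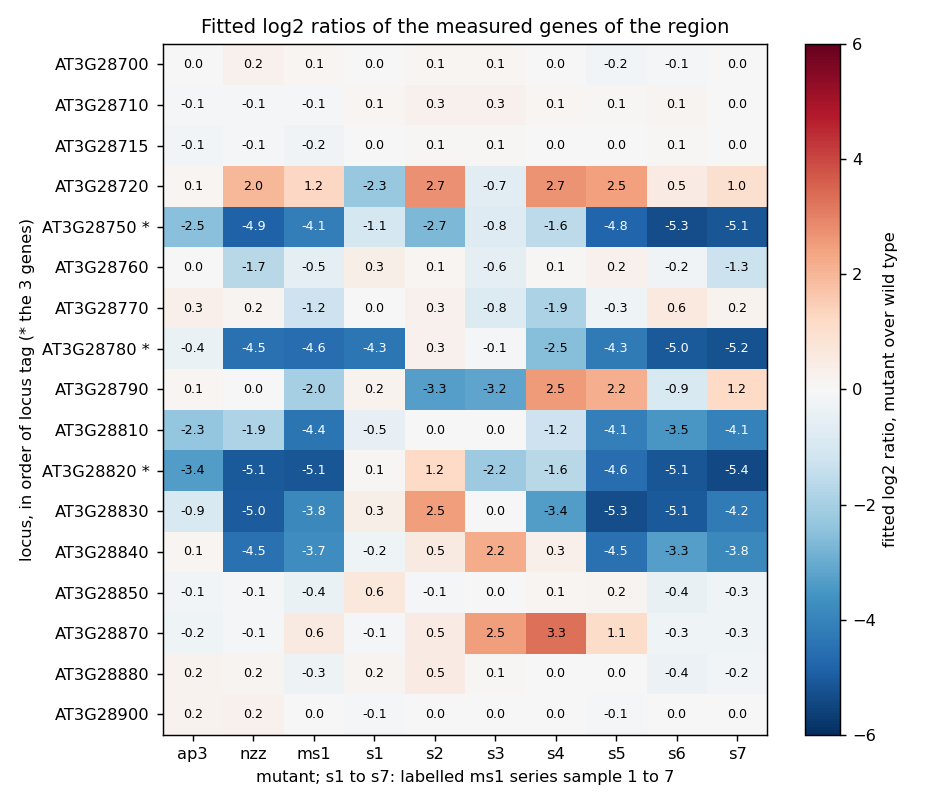
Fitted log2 ratio of mutant over wild type (colour and number) for the 17 measured loci of the region in order of locus tag (rows, the 3 genes starred), by mutant and labelled ms1 series sample (columns). Low ratios (blue) appear at the 3 genes and at AT3G28810, AT3G28830 and AT3G28840, among loci near 0 and loci with isolated low or high means, such as AT3G28790 and AT3G28720; limited values enter these means.

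The region around the 3 genes was then read in full, from AT3G28700 to AT3G28900. RefSeq's table for assembly TAIR10.1 lists 30 genes in it, 4 of them pseudogenes, and 17 had a probe, the 3 genes and 14 neighbours. From AT3G28750 to AT3G28820 it lists 9 genes, 2 of them lying between AT3G28750 and AT3G28780 and 4 between AT3G28780 and AT3G28820. AT3G28800 is listed as a pseudogene and had no probe. The deposited files name no genome build, so no coordinates are given.

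Among the neighbours, AT3G28830, next in tag order after AT3G28820, had low ratios in the same mutants as the 3 genes. It read -4.71, -4.60, -5.60 and -5.09 on nzz replicates 1 to 4 and -1.15, -4.86, -4.19 and -5.19 on ms1 replicates 1 to 4. It read -0.47, -1.30, -0.80 and -1.07 on ap3 replicates 1 to 4. The nzz arrays all lay below the ap3 arrays, and ms1 replicate 1 again stood nearest 0 of its group. Its fall was -5.00 ± 0.49 in nzz (SE, n = 4; limma adjusted p = 0.000468) and -3.85 ± 0.49 in ms1 (limma adjusted p = 0.00512), and it was the only 1 of 14 neighbours called in either, where 6.91% and 1.74% of all probes were called lower. Both calls were kept without any 1 array of their group, although the ms1 call was lost when the ms1 arrays were fitted alone (adjusted p = 0.403). In ap3 it was not called (-0.91 ± 0.49, limma adjusted p = 0.615), and its ap3 ratio was higher than its nzz ratio by 4.09 ± 0.70 (limma adjusted p = 0.0189), a call lost in 5 of 8 fits without 1 array (adjusted p up to 0.0712), after scaling (0.193) and with a replicate block (0.0534).

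AT3G28830 also fell in labelled series samples 5 (-5.30 ± 1.00, limma adjusted p = 0.0135) and 6 (-5.06 ± 1.00, limma adjusted p = 0.0252), and read -4.22 in sample 7 (limma adjusted p = 0.107). Of all probes, 0.79% and 0.713% were called lower in samples 5 and 6. The calls of AT3G28830 in these samples were lost without any 1 array of the sample, at limma adjusted p between 0.0834 and 0.18. One array of AT3G28830 in labelled sample 2 lay at the upper limit of 6.64, and with limited values set to missing the gene passed in labelled samples 4 to 7.

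AT3G28810, the locus tag just before AT3G28820, was not called in nzz and fell in labelled series samples 5 to 7. Its nzz arrays read -2.45, -2.64, -1.28 and -1.10, a mean of -1.87 ± 1.02 (SE, n = 4) that was not called (limma adjusted p = 0.255). All 4 were negative, and with the nzz arrays fitted alone the same mean was called (SE 0.06, limma adjusted p = 0.0128). In ms1 it read -4.36 ± 1.02, not called (limma adjusted p = 0.0747; with its limited array set to missing, adjusted p = 0.0487). In labelled series sample 5 it read -3.98, -4.47 and -3.74 in sets 1 to 3, in sample 6 -4.27, -3.56 and -2.47, and in sample 7 -5.22, -4.58 and -2.25. These 9 arrays lay between -5.22 and -2.25 and the 12 of samples 1 to 4 between -1.75 and 0.53, with no overlap and none at the limit. The series was divided there with earlier results of these data known, and how many of all probes separate alike was not counted. The falls in labelled samples 5, 6 and 7 were -4.12 ± 0.43, -3.49 ± 0.43 and -4.07 ± 0.43 (limma adjusted p = 9.36e-05, 0.000936 and 0.000318), and each was kept without any 1 array of its sample. Of all probes, 0.79%, 0.713% and 0.552% were called lower in these samples. Read as dye ratios, the ratios of AT3G28810 in these samples came to -0.44, -0.42 and -0.32 and those of AT3G28830 in nzz and ms1 to -0.34 and -1.18, and none was called.

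AT3G28840 had low ratios with wide errors. Its nzz arrays read -4.55, -4.41, -2.87 and -6.16, and its ms1 arrays -2.51, -4.21, -4.35 and -3.78. The 4 ap3 arrays included both limits, 6.64 and -6.64, besides 0.34 and 0.17. The fitted ratio was -4.50 ± 1.48 in nzz (limma adjusted p = 0.0728) and -3.71 ± 1.48 in ms1 (limma adjusted p = 0.292), and neither was called. With limited values set to missing, both passed (limma adjusted p = 0.00116 and 0.00805).

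Other loci between the 3 genes did not pass the test. AT3G28760 and AT3G28770, which lie between AT3G28750 and AT3G28780, read -1.66 ± 1.09 and 0.16 ± 1.56 in nzz, and were called in none of the 10 comparisons with wild type. The nzz mean of AT3G28760 holds 1 limited array, the others reading -0.60, -0.14 and 0.75. AT3G28770 had 3 of 4 ms1 arrays at the limit, with both signs, and in ms1 it was called lower only when the values were read as dye ratios (-5.41, limma adjusted p = 0.00787). AT3G28790, the next probe after AT3G28780, read 0.04 ± 1.51 in nzz and had limited values of both signs in the series, with fitted ratios of -3.30 and -3.17 in labelled samples 2 and 3. In ms1 it read -1.97 ± 1.51 with 3 of 4 arrays at the limit, and was called without replicate 1 (-4.53, limma adjusted p = 0.023). Of the remaining neighbours, AT3G28870 alone passed in any comparison, with a rise of 3.29 ± 0.74 in labelled series sample 4 (limma adjusted p = 0.0437), where 0.617% of all probes were called higher. One of its arrays was at the limit: without set 1 it read 1.73 (adjusted p = 0.346), and without set 3 it missed the threshold as well (4.03, adjusted p = 0.0511). In labelled sample 3 AT3G28870 read 2.72, 4.00 and 1.10 with no array at the limit, and it passed there only with limited values set to missing across the series (2.59, limma adjusted p = 0.00286). In ap3 no neighbour was called by limma, with 3 of 14 at an unadjusted p under 0.05 in either direction. Of all probes, 5.09% were lower and 4.57% higher at that threshold. No neighbour was called in labelled series samples 1 to 3 either, where 0.00767%, 0.376% and 0.833% of all probes were called lower. At the unadjusted threshold 1, 3 and 2 of 14 neighbours passed there, in either direction. The shares of all probes were 2.19%, 2.78% and 3.01% lower and 1.32%, 12.4% and 6.17% higher. In labelled series sample 4, 0.652% of all probes were called lower and no neighbour was. At an unadjusted p under 0.05 by limma, 3 neighbours and 2.43% of all probes were lower there. At the same unadjusted threshold, 2 of 14 neighbours were lower and 2 higher in nzz, and 6 were lower and 0 higher in ms1. The shares of all probes were 11.3% lower and 19.5% higher in nzz, and 7.21% and 7.28% in ms1. In each of labelled series samples 5 to 7, 3 neighbours were lower, and 1, 0 and 0 were higher. The shares of all probes there were 3.6%, 4.59% and 3.79% lower and 3.28%, 5.54% and 2.72% higher. The medians of the 14 neighbours were -0.08 in nzz and -0.34 in ms1, against medians over all probes of 0.10 and 0.02.

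The likeness of the 3 genes to each other over the 10 comparisons with wild type was moderate. As a description over 10 fitted ratios that share arrays, a dye term and limited values, Pearson's r was 0.78 between AT3G28750 and AT3G28820, 0.66 between AT3G28750 and AT3G28780, and 0.63 between AT3G28780 and AT3G28820. The root mean square difference was 1.42, 1.60 and 1.86 for these pairs. The largest mean differences of the pairs lay in samples with limited arrays, at -3.56 for AT3G28750 minus AT3G28820 in labelled series sample 2, and at 3.33 and -4.15 for AT3G28750 minus AT3G28780 and AT3G28780 minus AT3G28820 in labelled series sample 1.

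**Figure D4:**
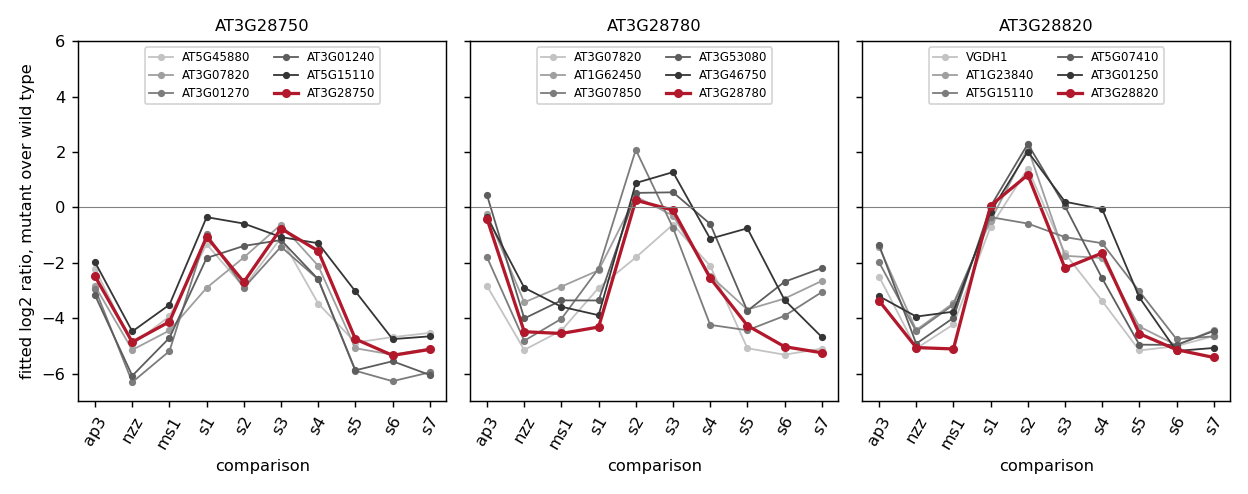
Fitted log2 ratio of mutant over wild type (vertical axis) over the 10 comparisons (horizontal axis; s1 to s7 are the labelled ms1 series samples) of each of the 3 genes (red) and of the 5 named genes nearest to it by root mean square difference (grey). The lines join separate groups to show the profile, with the lowest ratios in nzz, ms1 and labelled samples 5 to 7.

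Other genes of the array lay closer to each of the 3 than these lay to each other. A search for the smallest distance among so many probes makes this likely by itself. It is therefore no measure of how alike the 3 are. Among 13794 probes compared, the nearest to AT3G28750 were AT5G45880 and AT3G07820, with root mean square differences of 0.69 and 0.70 over the 10 ratios, then AT3G01270 (0.886, r = 0.98), AT3G01240 (0.892) and AT5G15110 (0.973). AT3G28820 was nearest to the pollen pectin methylesterase VGDH1, at 0.804 (r = 0.93), followed by AT1G23840 (0.976), AT5G15110 (1.12), AT5G07410 (1.16) and AT3G01250 (1.18). AT3G28780 had no equally close companion: AT3G07820 stood at 1.18 and AT1G62450, AT3G07850, AT3G53080 and AT3G46750 between 1.36 and 1.53. Limited values, which have no measured size, enter all of these distances. The AT3G28780 ratio in labelled series sample 1 has 2 of 3 arrays at the limit, and those of AT3G28750 and AT3G28820 in sample 2 have 1 of 3 each. The plot of the nearest profiles shows where AT3G28780 leaves most of them. In labelled series samples 6 and 7, AT1G62450, AT3G07850, AT3G53080 and AT3G46750 had fitted ratios of -4.68 to -2.19, all higher than its own. AT3G07820 stayed near it there, at -5.32 and -5.10 against -5.03 and -5.25. In labelled sample 1 all 5 profiles, at -3.89 to -2.21, lay above the AT3G28780 ratio of -4.32, which holds the limited arrays. AT3G07820 was among the nearest of AT3G28750 and AT3G28780, and AT5G15110 among those of AT3G28750 and AT3G28820. Ranked by r in place of the difference, 1, 1 and 3 of the 5 nearest genes of AT3G28750, AT3G28780 and AT3G28820 stayed in the list.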

How the data were processed

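RNA of mutant and wild-type flowers was amplified to antisense RNA, coupled to Cy3 or Cy5 and hybridised together on long-oligonucleotide arrays, per the labels' protocols. The authors deposited 1 table of normalized values, read here as log10 ratios already turned to one direction and centred near 0. How the spots were scanned, corrected for background and normalized is not given in the sources used here. They were converted to log2 (factor 3.32) and turned to mutant over wild type. Probes were named through the platform annotation and the RefSeq table of TAIR10.1.

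limma 3.58.1 (R 4.3.3; lmFit, eBayes) was fitted to all probes, with 1 coefficient per group and 1 dye term, once for the 12 mutant arrays and once for the 21 series arrays, where dye also separates set 2 from sets 1 and 3. A probe needed at least 3 of 4 (mutants) or 2 of 3 (series) values. Calls were made below 0.05 after Benjamini-Hochberg adjustment of p-values across every probe tested. The 450 control probes were left out. The number of arrays limits the precision. The labels speak of biologically independent sets but leave unclear whether each of a mutant's 4 arrays had its own sample, so p-values measure the spread between arrays, which may in part be technical. In the series, set numbers mark shared collection days, per the labels, and the deviations of arrays of one set correlated at a median r of 0.45 (63 pairs, -0.49 to 0.74), against -0.02 for other pairs.

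The loci named were the 3 genes, every measured neighbour from AT3G28700 to AT3G28900, the 5 most alike named genes of each, and marker lists. The members, lists and tests were chosen with earlier results of these data known. Alternatives were the dye term, centring, scaling, limited values, reading as dye ratios, a replicate block, arrays left out and fits of a mutant alone. The fits were tested on simulated data. No sequences were used.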

Additional observations from a re-analysis of the deposited data

Results flagged for a closer look

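AT3G28780 had a higher ratio in ap3 than in nzz by 4.07 log2 units (SE 0.80, limma adjusted p = 0.0338), and it was drawn out because this difference between the mutants was tested directly. The ap3 arrays read -0.50, 0.31, -0.12 and -1.35, and the nzz arrays -4.53, -4.51, -3.82 and -5.09. The mutants were sampled at different tissue ages, and genotype and age cannot be told apart.

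AT3G28720, a neighbour, had 1 nzz array far from the others. Replicate 2 read the upper limit of 6.64, against 0.42, 0.56 and 0.34 on replicates 1, 3 and 4. That array carried the mutant in Cy5, where limited values mostly had this sign, so the value is no bound on the ratio. Of 51 groups of 4 arrays examined over the 17 loci of the region, this was the only 1 with such an array. Chance alone marks about 1 in 20 groups. The ap3 groups of AT3G28820 and AT3G28870 lacked a value on replicate 3.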

How the results depend on the processing

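Read as dye ratios, the nzz ratios were -0.13 for AT3G28750, 0.032 for AT3G28780 (sign turned) and -1.003 for AT3G28820, none of them called, and the differences of ap3 minus nzz turned to -0.57, -0.54 and -0.50; the changed reading itself makes these. The difference for AT3G28780 missed the threshold without the dye term (4.07, adjusted p = 0.0725), with arrays scaled to one spread (3.74, adjusted p = 0.26) and with the replicate block (4.07, adjusted p = 0.0949), and ranged from 3.78 to 4.60 without 1 array; the cause was not tested. The count of all probes lower in ap3, 32, became 17 without the dye term, 175 scaled, 339 as dye ratios, 5 with the replicate block, 10 with the group alone and 7 to 15 without 1 array. That in nzz, 1801, became 493 as dye ratios and 1010 to 1369 without 1 array. Without 1 array the nzz ratios ranged from -5.25 to -4.64 (AT3G28750), -5.01 to -4.20 (AT3G28780) and -5.40 to -4.60 (AT3G28820), all called, and those in ap3 from -2.68 to -2.24, -0.66 to -0.25 and -3.95 to -2.43, none called. The remaining differences of ap3 minus nzz ranged from 2.15 to 2.76 (AT3G28750) and 1.11 to 2.63 (AT3G28820). Same-numbered mutant arrays correlated at -0.21 to 0.32 in their deviations, 6 of 12 pairs over 0.1, so the numbers were not taken to pair them. In the series, where the sets pair by collection day, the replicate block changed no count of neighbours called. With limited values set to missing, 2 neighbours in place of 1 were called lower in nzz, 3 in place of 1 in ms1 and in labelled series sample 7, 1 in place of 0 in sample 4, and 3 in place of 2 in samples 5 and 6. With the group alone the counts were 2 in nzz and 0 in ms1, without ms1 replicate 1 the count was 2, and as dye ratios it was 0 in nzz and in labelled samples 5 to 7. Calls over all probes change with these settings too, in ap3 from 32 to 48 with limited values set to missing. Whether the changes in neighbour counts are particular to the region was not tested. The comparison with related proteins, with its looser E-value, was not run, since no protein table was at hand.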
